A study of Mus musculus with 8 samples.

Results

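The genes examined here encode the enzymes that add methyl and acetyl groups to histones, the enzymes that remove them, and subunits of their complexes. They were chosen by name, as a list of 52 gene symbols: 25 methyltransferases with their complex subunits, 10 lysine demethylases, 11 deacetylases and 6 acetyltransferases. Probes were taken by the RefSeq transcript that the array annotation gives them. This found 72 of the 55681 non-control probes, for 51 of the 52 genes, and no probe was matched to Kmt2a. Of these 72 probes, 71 passed the filter on dim signals and were tested among 31679 probes in all. The remaining one, a second probe of Hdac9, was well above background on 1 KO array and on 0 WT arrays, where at least 4 of the 8 arrays were required.

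The samples were ureteric bud cells of newborn C57BL/6 mice (postnatal day 0), sorted from kidneys by flow cytometry for green fluorescent protein. This epithelium branches to form the collecting ducts of the kidney. In the 4 knockout samples (KO), labelled DOT1-null, Dot1 was deleted conditionally in Hoxb7-positive cells. The 4 wild-type samples (WT) carried the control genotype. The sources used here do not name the Cre line, the floxed allele or the source of the fluorescence, and do not say whether a sample pooled several animals. Each sample was labelled with Cy5 and hybridised to its own array against the RNA of WT 3 in Cy3. Values are log2 ratios of Cy5 to Cy3, and a difference is KO minus WT on that log2 scale. The array of WT 3 set that RNA against itself, and still read 1.00 at Carm1, for example. Only differences between arrays are therefore compared, never levels between probes.

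Histone tails carry marks that other proteins read. Methylation of lysine 4 on histone H3 (H3K4) is found at active promoters and enhancers, and that of lysine 36 along transcribed genes. Methylation of lysine 9 or lysine 27 goes with silencing, and acetylation goes with open, active chromatin. DOT1L itself methylates a lysine in the globular core of histone H3 and has no SET domain, unlike the catalytic lysine methyltransferases listed here.

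The arrays did not fall cleanly into groups. KO 2 lay at -21.89 on the first principal component (55.6% of the variance), beside the WT arrays at -28.65 to -20.70, while the other KO arrays lay between 27.14 and 54.76. Among the 64 member probes with values on all arrays, 47 had KO 2 nearer to the WT mean than to the mean of the other KO arrays (73.4%, against 68.2% of all such probes). KO 3 had 7665 spots with a non-uniform or outlier mark, against 175 to 216 on the other arrays, and 7 member probes had no value on it. Its median Cy5 intensity was 636, against 122 to 137 on the other KO arrays and 93.5 to 107.5 on the WT arrays. The groups also occupied different rows of their common slide, and the effect of the row cannot be told apart from that of the genotype. The RNA comes from sorted cells in bulk, in which fewer cells of a type and less RNA per cell cannot be told apart. The targeted gene, Dot1l (NM_199322), read 0.35, 0.03, -0.04 and 0.30 on KO 1 to KO 4 and 0.03, -0.05, -0.11 and 0.07 on WT 1 to WT 4, a difference of 0.18 ± 0.11 (SE; limma adjusted p = 0.341). Whether its 1 probe lies inside the deletion is not known here, so the probe does not check the labels.

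No histone enzyme passed the test between KO and WT. Of 71 member probes, 0 had a limma adjusted p under 0.05, where 2 of all 31679 probes did (0.00631%). The smallest adjusted p among the members was 0.0984, for Kat2a. At an unadjusted p under 0.05 there were 25 member probes, 11 higher and 14 lower in KO. That is 35.2% of the members, beside 23.8% of all probes tested, and by direction 15.5% against 9.98% for higher and 19.7% against 13.8% for lower. Differences ran from -0.45 to 0.85, with 35 probes above 0 and 36 below. The median was -0.01 over the members, beside -0.02 over all probes. The direction of many members depends on the scaling: with median centring in place of loess the median of all probes was -0.28 and that of the members -0.39, and 27 of 71 member differences changed sign, or 16 when taken relative to the median of all probes. With Cy5 alone these medians were -0.18 and -0.11, and 11 signs changed, or 16 relative to the median.

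The class median was 0.02 for the 34 methyltransferase probes, -0.01 for the 14 demethylase probes, -0.02 for the 15 deacetylase probes and -0.11 for the 8 acetyltransferase probes. With median centring the medians were -0.28, -0.45, -0.34 and -0.47 in the same order. In each class the array medians of KO and WT overlapped. The deacetylase median, for example, taken relative to the WT mean, was 0.20, -0.07, -0.00257 and 0.03 on KO 1 to KO 4 and lay between -0.06 and 0.02 on the WT arrays. The acetyltransferase median was 0.03 on KO 1 and between -0.24 and -0.08 on the other KO arrays, and between -0.05 and 0.04 on the WT arrays. No test compared the classes. Within a class, methyltransferase differences spanned -0.45 to 0.85 and deacetylase differences -0.41 to 0.44.

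**Figure D1:**
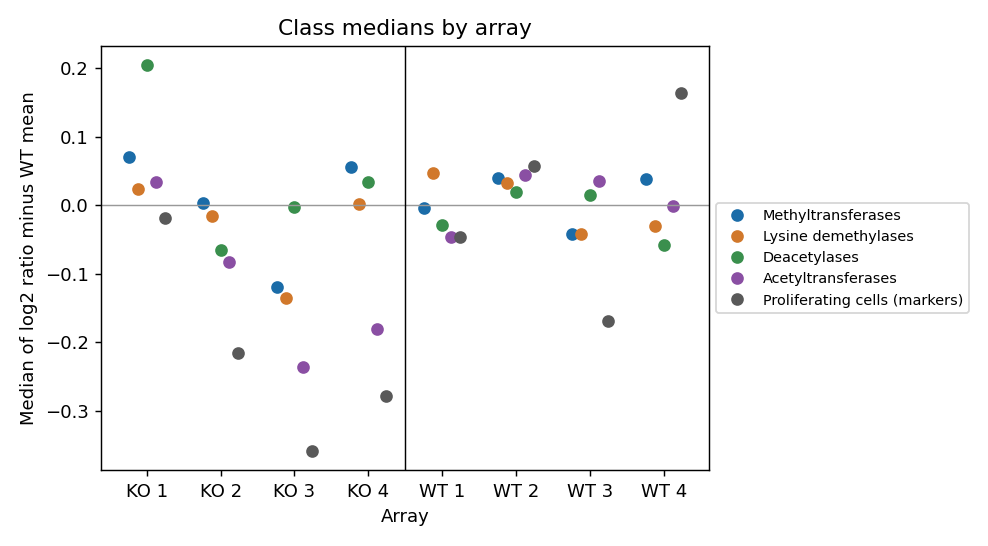
Median over the probes of each enzyme class, and over probes of proliferation markers, of the log2 ratio minus the WT mean of the same probe (y axis) on each array (x axis, KO left and WT right). Deacetylases reach 0.20 on KO 1, acetyltransferases -0.24 on KO 3, and the proliferation markers lie lowest on KO 3 at -0.36.

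Of the 64 member probes with values on all 8 arrays, 10 had KO and WT arrays that did not overlap (15.6%, against 11.4% of all such probes). In 4 of them every KO array was above every WT array, for Hdac1, Ehmt1, Kdm3a and Nsd1 at 1 probe each (3.58% of all complete probes). In 6 every KO array was below every WT array, for Kat2a, Carm1, Ash1l, Kdm4a, Hdac2 and Kat7 at 1 probe each (7.81% of all complete probes). The other tested probes of Hdac1, Ehmt1, Nsd1, Kat2a and Kdm4a overlapped between KO and WT. Both sets of probes without overlap were formed from the values and get no test of their own.

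**Figure D2:**
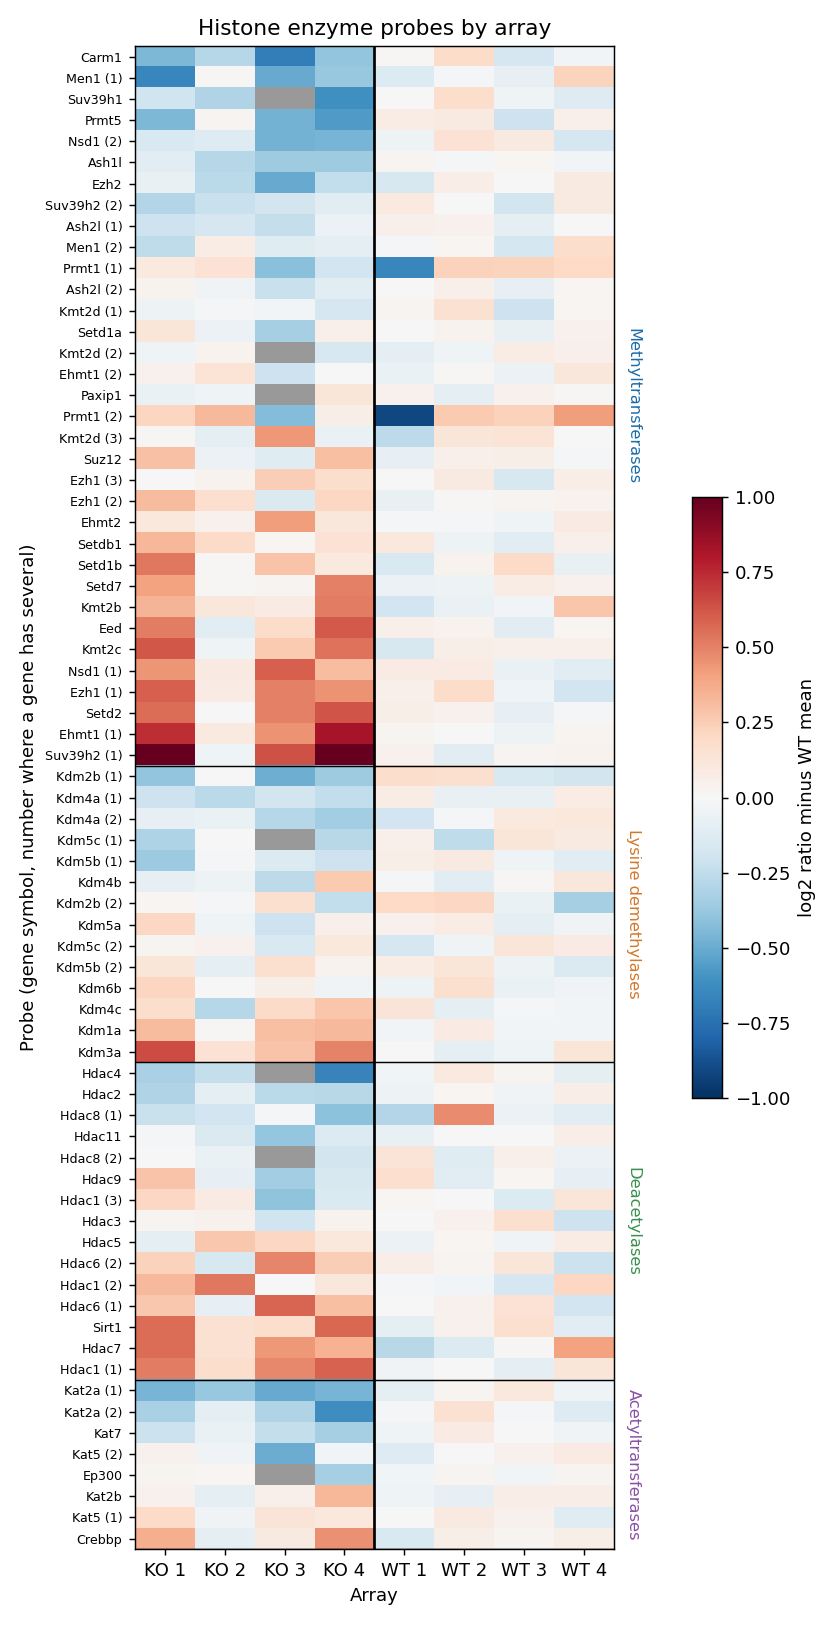
Log2 ratio of each member probe (rows, by class and by difference) minus its WT mean, on each array (columns, KO left and WT right). Blue is below and red above the WT mean, grey is a missing value, and the scale ends at 1, which the higher probe of Suv39h2 exceeds on 2 arrays. KO 2 is nearer to the WT mean than to the mean of the other KO arrays in 47 of the 64 complete rows.

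Among the acetyltransferases, Kat2a (GCN5), the catalytic subunit of the SAGA and ATAC coactivator complexes, had the smallest p of all members. At probe A_55_P2049602 (NM_020004) it read 0.00, 0.09, -0.03 and 0.01 on KO 1 to KO 4, against 0.38, 0.50, 0.58 and 0.42 on WT 1 to WT 4. All KO arrays, KO 2 included, lay below all WT arrays, and the KO values spanned less than the WT values. The difference was -0.45 ± 0.08 (SE, n = 4 each; limma adjusted p = 0.0984), 1.37-fold, with a 95% confidence interval of -0.63 to -0.28. A second Kat2a probe, A_55_P1974412, read -0.21, 0.02, -0.19 and -0.50 on the KO arrays and 0.10, 0.27, 0.11 and -0.02 on the WT arrays. Its difference was -0.34 ± 0.12 (SE; limma adjusted p = 0.143), the same way as the first, with KO 2 overlapping the WT arrays. The first probe stayed below 0 in each alternative run on it, which leaves out the choice of the brightest probe per gene. Its values ran from -1.005 to -0.39, with a limma adjusted p between 0.00596 and 0.301. The low end came from leaving out KO 2, a choice made from these same values and not a test. With all arrays at equal weight, the lowest limma adjusted p of any member was 0.0804, with scaling between arrays. The second Kat2a probe had -0.74 with median centring and -0.32 with Cy5 alone.

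Kat7 (HBO1), which acetylates histone H3 and H4 at replication origins and genes, had a difference of -0.21 ± 0.08 (SE; limma adjusted p = 0.170). Kat5 (TIP60), an acetyltransferase of the DNA damage response, read both ways at its 2 probes. Probe A_55_P2017714 gave -0.10, -0.32, -0.16 and -0.18 on KO and -0.29, -0.20, -0.25 and -0.41 on WT arrays, and A_55_P1996329 gave 0.44, 0.37, -0.10 and 0.37 on KO and 0.27, 0.41, 0.44 and 0.48 on WT arrays. The groups overlapped at both, with differences of 0.10 and -0.13, and KO 3 alone lay apart at the second. The paralogous coactivators Crebbp and Ep300, which acetylate H3K27 at enhancers, had 0.20 ± 0.13 and -0.10 ± 0.11 (SE), that of Ep300 fitted without KO 3. With median centring Crebbp had -0.34. Kat2b, the paralogue of Kat2a, had 0.08 ± 0.10.

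Among arginine methyltransferases, Carm1, a coactivator that methylates histone H3 arginines, read 0.72, 0.88, 0.47 and 0.77 on KO 1 to KO 4 and 1.18, 1.35, 1.00 and 1.14 on WT 1 to WT 4. Every KO array was below every WT array. The difference was -0.45 ± 0.11 (SE; limma adjusted p = 0.108; 95% confidence interval -0.71 to -0.20). Prmt5, which makes symmetric dimethylarginine, had -0.37 ± 0.14 (limma adjusted p = 0.159), with KO 2 at 0.74 among the WT arrays at 0.50 to 0.80. Prmt1, the main source of asymmetric dimethylarginine, had -0.09 ± 0.21 and 0.04 ± 0.28 at its 2 probes. Both probes of Prmt1 were lowest on WT 1, at -1.05 and -0.78, while the other WT arrays lay between -0.21 and -0.18 and between 0.35 and 0.54.

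**Figure D3:**
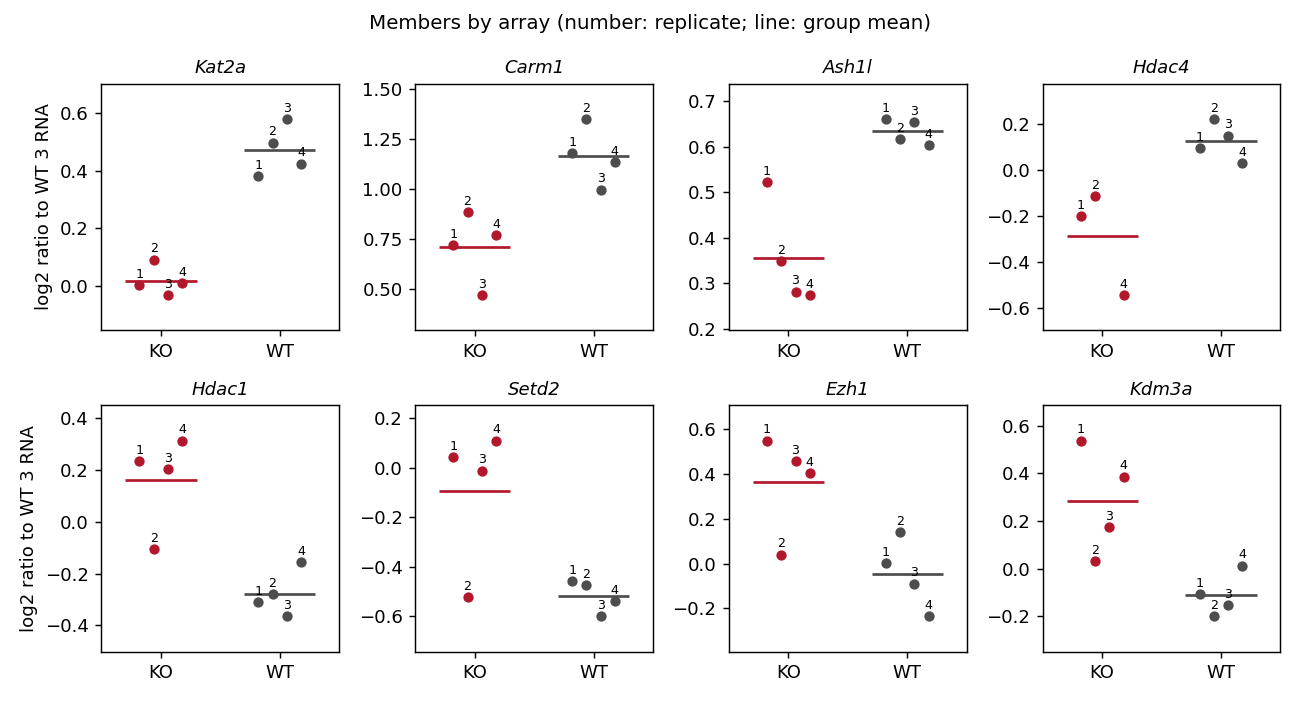
Log2 ratios to the RNA of WT 3 (y axis, its range differs by panel) on each KO array (red, left) and WT array (grey, right) for 8 members at the probe with the smallest p, with the group mean as a line and the replicate number above each point. Kat2a, Carm1, Ash1l, Hdac4, Hdac1 and Kdm3a do not overlap between groups on the arrays that have values, and KO 2 lies with the WT arrays for Setd2 and Ezh1.

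H3K4 methyltransferases and their subunits gave 13 probes of 9 genes, with 6 above 0 and 7 below and a median of -0.05. The smallest p was for Men1, which encodes menin, a scaffold subunit of the KMT2A and KMT2B complexes. At probe A_55_P2143159 it read -0.29, 0.38, -0.14 and -0.01 on KO 1 to KO 4 and 0.23, 0.35, 0.29 and 0.59 on WT 1 to WT 4, a difference of -0.38 ± 0.15 (SE; limma adjusted p = 0.162). KO 2 alone of the KO arrays overlapped the WT arrays, and the other Men1 probe had -0.10 ± 0.10. Kmt2c, a catalytic subunit that marks enhancers, had 0.35 ± 0.14 (limma adjusted p = 0.186), with KO 2 at -0.29 within the WT range. Its paralogue Kmt2d had -0.07, -0.05 and 0.07 at 3 probes. Kmt2b, a promoter enzyme, had 0.26 ± 0.13, Setd7, which monomethylates H3K4 and non-histone proteins, 0.24 ± 0.12, and Setd1b 0.23 ± 0.13. With median centring these had -0.11, -0.13 and -0.17. Setd1a, the paralogue of Setd1b, had -0.05 ± 0.11. The core subunit Ash2l had -0.17 ± 0.08 and -0.08 ± 0.08, and Paxip1 (PTIP), a subunit of the KMT2C and KMT2D complexes, 0.00 ± 0.09. The 95% confidence interval of Paxip1, fitted without KO 3 and not adjusted for the number of probes, ran from -0.20 to 0.21. Differences within that range are compatible with its values.

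All 4 probes of the H3K36 methyltransferases had an unadjusted p under 0.05, beside 23.8% of all probes tested, with 2 on each side of 0. Ash1l read 0.52, 0.35, 0.28 and 0.27 on KO 1 to KO 4 and 0.66, 0.62, 0.65 and 0.60 on WT 1 to WT 4, with no overlap. Its difference was -0.28 ± 0.08 (SE; limma adjusted p = 0.119). Setd2, the enzyme that makes trimethylated H3K36 along genes, read 0.04, -0.52, -0.01 and 0.11 on the KO arrays and -0.46, -0.47, -0.60 and -0.54 on the WT arrays. KO 2 lay among the WT arrays and the other KO arrays well above them. The difference was 0.42 ± 0.14 (limma adjusted p = 0.128), or 0.02 with median centring.

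Nsd1, which dimethylates H3K36, gave opposite readings at its 2 probes for the same transcript (NM_008739). Probe A_55_P2016877 read 0.32, -0.03, 0.48 and 0.19 on KO 1 to KO 4 and -0.03, -0.03, -0.18 and -0.23 on WT 1 to WT 4, a difference of 0.36 ± 0.12 (SE; limma adjusted p = 0.129), or -0.19 with median centring. KO 2 lay above WT 1 and WT 2 here by less than the rounding of these values. Probe A_52_P565940 read 0.09, 0.11, -0.23 and -0.22 on the KO arrays and 0.19, 0.39, 0.33 and 0.07 on the WT arrays, a difference of -0.31 ± 0.12 (limma adjusted p = 0.160). Tested on the within-array difference of the 2 probes, KO and WT differed by -0.67 ± 0.16 (second probe minus first; limma adjusted p = 0.0742 over all 5797 probe pairs).

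The H3K9 methyltransferases held the widest differences. Suv39h2, which trimethylates H3K9 in heterochromatin, read 1.30, 0.24, 0.92 and 2.08 on KO 1 to KO 4 at probe A_55_P2072403 (NM_022724), against 0.33, 0.18, 0.31 and 0.33 on WT 1 to WT 4. KO 2 lay within the WT range and the other KO arrays far above it. The difference was 0.85 ± 0.31 (SE; limma adjusted p = 0.151), or -0.09 with Cy5 alone in place of the ratio. The other Suv39h2 probe, A_52_P16931, read -0.22, -0.15, -0.11 and -0.05 on the KO arrays and 0.16, 0.07, -0.12 and 0.16 on the WT arrays, a difference of -0.20 ± 0.09 (limma adjusted p = 0.212). The 2 probes thus stood on opposite sides of 0, with a difference between them of -1.05 ± 0.30 (second minus first; limma adjusted p = 0.0850 over the probe pairs).

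Ehmt1 (GLP), which dimethylates H3K9 together with EHMT2 (G9a), also split by probe. At A_55_P2045163 (NM_001012518) it read 1.13, 0.49, 0.84 and 1.21 on KO 1 to KO 4 and 0.41, 0.38, 0.34 and 0.42 on WT 1 to WT 4. All KO arrays were above all WT arrays, KO 2 by the least. The difference was 0.53 ± 0.15 (SE; limma adjusted p = 0.112), or -0.03 with Cy5 alone. Probe A_55_P2149440 read 0.33, 0.43, 0.08 and 0.29 on the KO arrays and 0.22, 0.30, 0.23 and 0.40 on the WT arrays, a difference of -0.01 ± 0.10. Ehmt2 had 0.17 ± 0.10, Setdb1, which silences retroelements, 0.17 ± 0.09, and both genes overlapped between groups. With median centring they had -0.54 and -0.11.

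Suv39h1, the paralogue of Suv39h2, read -0.20, -0.30 and -0.61 on KO 1, KO 2 and KO 4, with no value on KO 3, and 0.00, 0.18, -0.04 and -0.13 on WT 1 to WT 4. Its difference was -0.37 ± 0.13 (SE; limma adjusted p = 0.140). These values did not overlap.

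The promoters of 3 members are shown because Kat2a had the smallest p and Suv39h2 and Ehmt1 the 2 highest differences. Each is the RefSeq sequence of build GRCm38.p6 from 250 bases before to 50 after the annotated start, on the minus strand, written 5′ to 3′. Capitals mark the GC box GGGCGG, on either strand, and no other motif searched is present in these 3. Kat2a lies at chr11:100712418-100712717, Suv39h2 at chr2:3474937-3475236 and Ehmt1 at chr2:24919560-24919859.
Kat2a: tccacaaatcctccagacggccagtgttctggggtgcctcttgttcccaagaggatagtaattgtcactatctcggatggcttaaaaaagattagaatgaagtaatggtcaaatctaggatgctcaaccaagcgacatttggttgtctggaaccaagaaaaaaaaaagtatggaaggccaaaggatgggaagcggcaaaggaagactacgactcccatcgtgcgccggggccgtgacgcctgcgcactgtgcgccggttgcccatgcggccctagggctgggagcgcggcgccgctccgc
Suv39h2: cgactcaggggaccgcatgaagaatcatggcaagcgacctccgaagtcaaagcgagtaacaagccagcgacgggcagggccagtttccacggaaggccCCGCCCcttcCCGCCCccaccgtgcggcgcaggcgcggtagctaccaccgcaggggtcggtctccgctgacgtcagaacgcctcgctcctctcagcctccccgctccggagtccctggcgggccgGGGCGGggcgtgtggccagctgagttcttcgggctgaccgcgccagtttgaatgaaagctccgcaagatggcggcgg
Ehmt1: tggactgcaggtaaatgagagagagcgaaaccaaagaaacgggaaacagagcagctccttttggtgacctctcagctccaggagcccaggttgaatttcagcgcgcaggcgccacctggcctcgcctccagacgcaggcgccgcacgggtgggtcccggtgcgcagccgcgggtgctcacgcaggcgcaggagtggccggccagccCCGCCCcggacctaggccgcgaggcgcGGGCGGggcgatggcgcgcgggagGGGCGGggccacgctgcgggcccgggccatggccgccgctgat
The Kat2a window holds 0 GC boxes and 19 CpG dinucleotides, that of Suv39h2 3 GC boxes and 33 CpG, and that of Ehmt1 3 GC boxes and 34 CpG. Over the 41 members with such an entry, 24 held a GC box (58.5%) against 35.9% of 27025 promoters, and the median CpG count was 22 against 7. The 27025 promoters were not limited to genes tested on these arrays. Whether the members differ from other tested genes in these counts was not examined. The motif CCAAT was in 48.8% of member promoters and 37.9% of all, CCGGAAG in 7.3% and 9.1%, TTTCCCGC in 2.4% and 1.1% and TTTGGCGC in 2.4% and 0.5%, all on both strands. Each motif was counted by itself, whether or not it overlapped another. Both probes of Suv39h2, and both of Ehmt1, belong to 1 transcript name each, so the window does not separate them.

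Polycomb repressive complex 2, which methylates H3K27, gave 6 probes of its 4 genes, 5 above 0 and 1 below. Ezh1, the catalytic subunit of less proliferative cells, read 0.55, 0.04, 0.46 and 0.40 on KO 1 to KO 4 at probe A_55_P2082869 and 0.00, 0.14, -0.09 and -0.24 on WT 1 to WT 4. KO 2 alone overlapped the WT arrays. The difference was 0.41 ± 0.13 (SE; limma adjusted p = 0.124), or -0.08 with median centring, and the other 2 probes had 0.14 ± 0.11 and 0.11 ± 0.09. Ezh2, the catalytic subunit of dividing cells, had -0.27 ± 0.11 (limma adjusted p = 0.168) at 1 probe. It read -0.05, -0.25, -0.49 and -0.23 on the KO arrays and -0.14, 0.09, 0.02 and 0.11 on the WT arrays, so that KO 1 alone overlapped them. Of 20 probes of the 14 markers of proliferating cells, 17 were below 0 and 3 above (15%, beside 45.6% of all probes), with a median of -0.22. The 3 above 0 were both probes of Mki67 and that of Pcna. By limma 7 had an unadjusted p under 0.05, all lower (35%, beside 13.8% of all probes), and 0 passed after adjustment. By array the median of the marker probes relative to WT was -0.02, -0.22, -0.36 and -0.28 on KO 1 to KO 4 and between -0.17 and 0.16 on the WT arrays. The part of proliferation in the difference of Ezh2 was not tested. Eed, which binds the methylated lysine, had 0.30 ± 0.15, and Suz12, a core scaffold, 0.10 ± 0.11. With median centring they had -0.16 and -0.21.

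**Figure D4:**
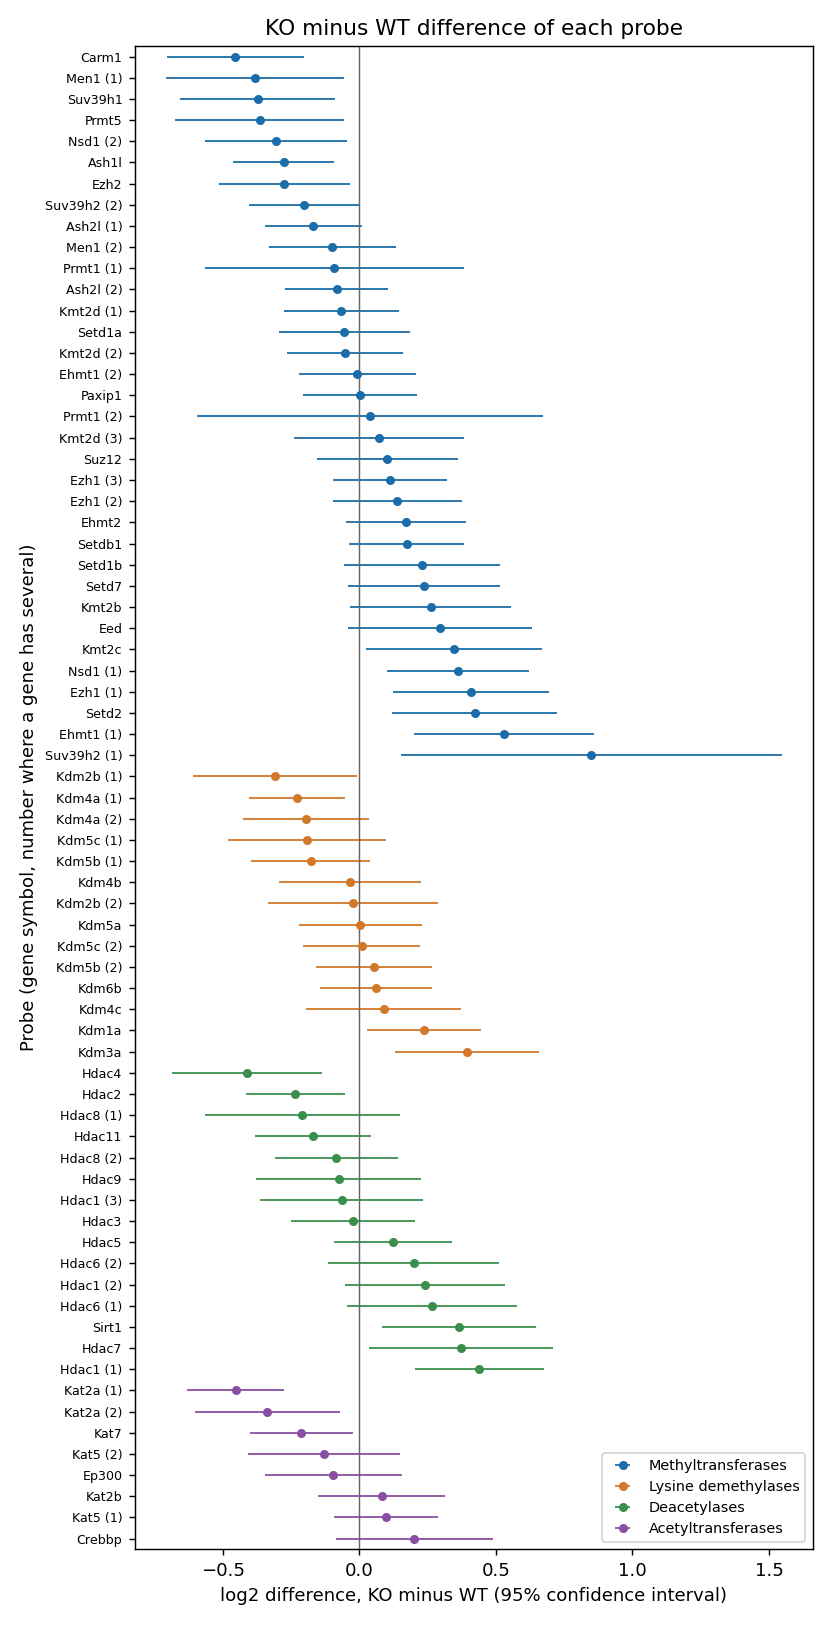
KO minus WT difference on the log2 scale (x axis) of each member probe (rows, by class), as a point with its 95% confidence interval from limma, not adjusted for the number of probes. No member passes after adjustment, and the widest interval is that of the higher probe of Suv39h2, from 0.15 to 1.55.

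The lysine demethylases had 7 probes above 0 and 7 below. Kdm3a, which removes methyl groups from H3K9 and is known to respond to hypoxia, read 0.54, 0.03, 0.17 and 0.39 on KO 1 to KO 4 and -0.11, -0.20, -0.15 and 0.01 on WT 1 to WT 4, with no overlap. Its difference was 0.39 ± 0.12 (SE; limma adjusted p = 0.119), or 0.05 with median centring. Kdm1a (LSD1), which demethylates H3K4 in the CoREST complex, had 0.24 ± 0.09 (limma adjusted p = 0.169), or -0.26 with median centring. It read -0.09 on KO 2, within the WT range of -0.13 to -0.02, and 0.20 to 0.22 on the other KO arrays. Kdm4a, which acts on methylated H3K9 and H3K36, had -0.23 ± 0.08 and -0.19 ± 0.10 at probes for 2 transcript names.

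Kdm2b, which demethylates H3K36 and recruits a Polycomb complex to CpG islands, had -0.31 ± 0.13 and -0.02 ± 0.14 at its 2 probes. The KDM5 family demethylates H3K4, and its 5 probes had differences between -0.19 and 0.05. Kdm5a had 0.00 ± 0.10. Kdm5b read -0.22, 0.14, 0.01 and -0.06 on the KO arrays and 0.21, 0.24, 0.10 and 0.04 on the WT arrays at A_52_P601980, a difference of -0.18, and 0.07, -0.14, 0.12 and -0.01 on KO and 0.03, 0.07, -0.10 and -0.19 on WT arrays at A_55_P2065449, a difference of 0.05. Kdm5c read 0.36, 0.67 and 0.39 on KO 1, KO 2 and KO 4 and 0.71, 0.41, 0.78 and 0.75 on the WT arrays at A_55_P1997167, a difference of -0.19, and 0.13, 0.14, -0.05 and 0.20 on KO and -0.07, 0.06, 0.22 and 0.18 on WT arrays at A_51_P477902, a difference of 0.01. The groups overlapped at all 4 of these probes. Kdm4b (-0.03 ± 0.12), Kdm4c (0.09 ± 0.13) and Kdm6b, an H3K27 demethylase (0.06 ± 0.09), overlapped between groups as well.

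Among the deacetylases, Hdac1, a class I enzyme of the NuRD, SIN3 and CoREST complexes, had 3 probes for 1 transcript (NM_008228). At A_55_P1970775 it read 0.24, -0.11, 0.20 and 0.31 on KO 1 to KO 4 and -0.31, -0.28, -0.37 and -0.16 on WT 1 to WT 4, with no overlap. Its difference was 0.44 ± 0.11 (SE; limma adjusted p = 0.108), or -0.19 with median centring. At A_66_P128384 it read 0.39, 0.59, 0.06 and 0.18 on KO and 0.05, 0.04, -0.11 and 0.27 on WT arrays, a difference of 0.24 ± 0.13. At A_55_P2077608 it read 0.70, 0.58, 0.10 and 0.35 on KO and 0.52, 0.49, 0.36 and 0.62 on WT arrays, a difference of -0.06 ± 0.13. The groups overlapped at A_66_P128384 and A_55_P2077608. KO 2 was the highest KO array at A_66_P128384 but the lowest at A_55_P1970775.

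Its paralogue Hdac2 had -0.23 ± 0.08 (SE; limma adjusted p = 0.141), with KO arrays between -0.36 and -0.15 below WT arrays between -0.11 and 0.01. Hdac3, the enzyme of the NCoR and SMRT corepressors, had -0.02 ± 0.10, with an interval of -0.25 to 0.21. Of the class IIa enzymes, which shuttle between nucleus and cytoplasm, Hdac4 read -0.20, -0.11 and -0.54 on KO 1, KO 2 and KO 4 and 0.10, 0.22, 0.15 and 0.03 on WT 1 to WT 4. These values did not overlap, KO 3 had none, and the difference was -0.41 ± 0.12 (limma adjusted p = 0.120). Hdac7 had 0.37 ± 0.15 (limma adjusted p = 0.176), or -0.14 with median centring. Hdac5 had 0.12 ± 0.10 and Hdac9 -0.08 ± 0.13.

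Hdac6, a mainly cytoplasmic deacetylase of tubulin, had 0.27 ± 0.14 and 0.20 ± 0.14 (SE) at its 2 probes, or -0.34 and -0.39 with median centring. Hdac8 had -0.21 ± 0.16 and -0.08 ± 0.10, and Hdac11 had -0.17 ± 0.09. Sirt1, a NAD-dependent deacetylase, read 0.21, -0.20, -0.17 and 0.23 on KO 1 to KO 4 and -0.44, -0.30, -0.19 and -0.46 on WT 1 to WT 4, a difference of 0.36 ± 0.13 (limma adjusted p = 0.140), or 0.07 with median centring. Only KO 2 overlapped the WT arrays.

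Probes of one gene often disagreed. Of the 17 members with several tested probes, 8 had all their differences on one side of 0 (47.1%), beside 60.5% of 4039 genes with several tested probes in the whole table. The median gap between a gene's highest and lowest probe was 0.23 in the members and 0.18 in all such genes. Of 23 member pairs of probes, 6 had an unadjusted p under 0.05 for a difference between the probes, or 26.1%, beside 25.7% of all 5797 pairs, and 0 passed at an adjusted p under 0.05, where 0.0345% of all pairs did. The share among the members was thus near that of all pairs. The lowest were Nsd1, Suv39h2 and Hdac1, with limma adjusted p of 0.0742, 0.0850 and 0.0947. This test was added after the values were seen.

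**Figure D5:**
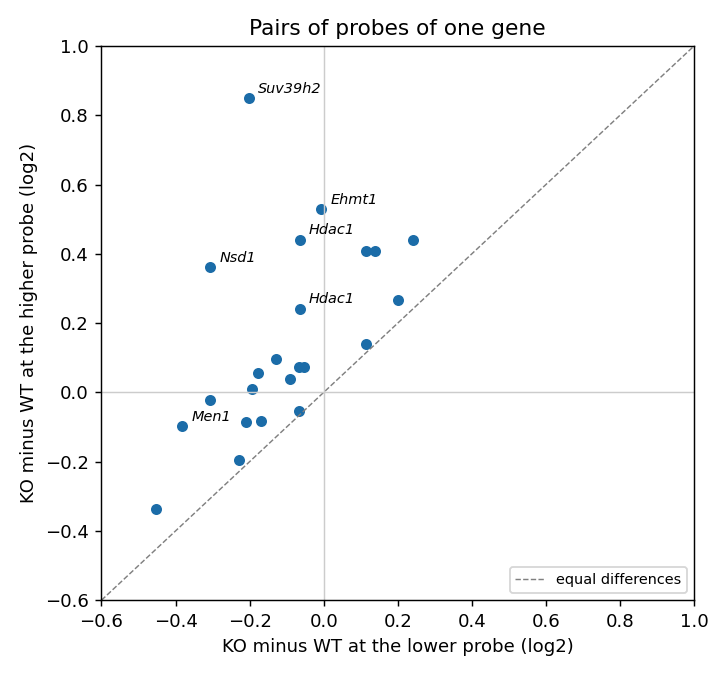
KO minus WT difference on the log2 scale at the higher probe (y axis) against that at the lower probe (x axis), for each of 23 pairs of probes of one member. Points on the dashed line would have equal differences. Suv39h2, Nsd1, Ehmt1 and Hdac1 lie farthest from it, Suv39h2 at -0.20 and 0.85, while both Kat2a probes lie below 0, at -0.45 and -0.34.

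KO 2 is singled out here for its position near WT in these same values, so leaving it out tends to widen the gap between groups. The calls and adjusted p-values below describe that choice and are not a test of the members. Without KO 2, limma called 21 of the 71 member probes (29.6%, against 21.1% of all 31679 probes), 12 higher and 9 lower in KO. By direction the shares of all probes were 9.69% higher and 11.4% lower. They comprised 10 of 34 methyltransferase probes, 3 of 14 demethylase probes, 5 of 15 deacetylase probes and 3 of 8 acetyltransferase probes. The 12 probes called higher belonged to Suv39h2, Ehmt1, Setd2, Hdac1, Ezh1, Kdm3a, Kmt2c, Nsd1, Sirt1, Eed, Hdac6 and Kdm1a. Their differences ran from 1.15 for Suv39h2 to 0.31 for Kdm1a. The 9 called lower were Men1, Carm1, Hdac4, Prmt5, both probes of Kat2a, Kdm2b, Hdac2 and Kat7, with differences from -0.51 for Men1 to -0.26 for Kat7. The second probes of Suv39h2, Ehmt1, Nsd1, Men1, Kdm2b and Hdac6 and both other probes of Hdac1 and of Ezh1 were not among the 21. Without both KO 2 and KO 3 limma also called 21 member probes, 14 higher and 7 lower, where 23.5% of all probes were called. By direction the shares of all probes were then 13.2% higher and 10.3% lower. Kat2a at A_55_P2049602 had -0.48 ± 0.08 (SE; limma adjusted p = 0.00596) without KO 2, close to its value with all arrays, whereas Suv39h2 at A_55_P2072403 had 1.15 ± 0.23 (limma adjusted p = 0.00944).

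The wider family of histone enzymes was measured from a second list of 74 genes, of which 69 had 108 tested probes. By limma 0 passed at an adjusted p under 0.05, and 30 had an unadjusted p under 0.05 (27.8%, beside 23.8% of all probes), 11 higher and 19 lower. The smallest p belonged to Ncoa2, a nuclear receptor coactivator with reported acetyltransferase links, at 0.35 ± 0.07 (SE; limma adjusted p = 0.101). Aebp2, an accessory subunit of Polycomb repressive complex 2, had -0.48 ± 0.12 (limma adjusted p = 0.107) at 1 probe and 0.45 ± 0.15 (limma adjusted p = 0.135) at another, and Sirt6, a chromatin deacetylase, -0.46 ± 0.12 (limma adjusted p = 0.109). The other deacetylases had 3 of 11 probes above 0 and a median of -0.09, other demethylases 6 of 19 and -0.07, other acetyltransferases 8 of 22 and -0.07, and other methylation enzymes 28 of 56 and -0.01.

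Markers of the sorted cells and of other kidney cells were measured on the same arrays. All 13 ureteric bud and collecting duct markers, among them Ret, Wnt11, Gata3 and Calb1, had tested probes, well above background on 4 KO and 4 WT arrays. Their median was -0.12, with 6 of 14 probes above 0 and array medians from -0.23 to -0.03 in KO and from -0.10 to 0.04 in WT. Of these probes 6 had an unadjusted p under 0.05 (42.9%, beside 23.8% of all probes), 1 higher and 5 lower, and 0 passed by limma's adjusted p. Hoxb7, the gene that names the cells of the deletion, read -0.59, -0.53, -0.64 and -0.79 on KO 1 to KO 4 and 0.11, 0.07, 0.04 and 0.05 on WT 1 to WT 4, a difference of -0.71 ± 0.08 (SE; limma adjusted p = 0.0636). KO 2 lay with the other KO arrays here, below all WT arrays. The other 5 were Wnt11 at -0.82, Calb1 at -0.54, Pax2 at -0.40 and -0.32 and Krt18 at 0.79. Markers of stroma and smooth muscle had 9 of 9 probes below 0 and a median of -0.44, with array medians from -1.09 to 0.33 in KO and from -0.50 to 0.26 in WT. Those of nephron progenitors and podocytes had 6 of 8 below 0 and a median of -0.44, from -1.30 to 0.01 in KO and from -0.51 to 0.78 in WT. Leukocyte, endothelial, tubule and erythroid markers were detected too, with medians of -0.06, 0.14, -0.04 and 0.03. Their part in the differences of the histone enzymes was not tested.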

How the data were processed

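Expression was measured on 8 Agilent 2-colour arrays, 4 KO and 4 WT, which the labels call biological replicates without naming animals. Per the labels, each sample was in Cy5 and the RNA of WT 3 in Cy3, with no dye swap, so ratios are Cy5 over Cy3. Intensity values of each spot were taken from the deposited scanner files, which carry probe annotation for mm9 per the file headers. The submitters' processing notes name Agilent Feature Extraction 10.7.3.1 as the authors' software. The deposited scanner ratio and series value table are on a log10 scale. The table and the scanner ratios correlated at 0.999999 or above on each array, and table columns had a log10 median of 0 except 0.0152 on KO 3. How the table was centred is not known here.

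Median intensities were background-corrected (normexp, offset 50) and loess-normalised within arrays in limma 3.58.1 (R 4.3.3), with control spots at weight 0. Spots marked non-uniform or as population outliers were left out, and replicate spots were averaged per probe. Testing required a Cy5 signal well above background on 4 or more of the 8 arrays and values on 3 or more per group. KO minus WT was tested on log2 ratios with lmFit and eBayes (2-sided). The Benjamini-Hochberg method was applied across the 31679 probes, at a threshold of 0.05. The script was tested on simulated data. Symbols came from RefSeq (GRCm38.p6), which matched 21717 of 37850 systematic names.

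The members and lists were chosen with earlier results of these data known. All members are named. Values on every array are given for the smallest p in each role list, the 5 highest and 5 lowest differences, and members whose probes have opposite signs and differ by over 0.2. Ezh2, Sirt1 and the second probe of Kat2a were added after their values were seen. The alternatives, 23 in all, varied background, normalization, filter, variance model, probe choice and the arrays used. The number of arrays limits the precision. Same-numbered KO and WT arrays had correlations of -0.20, 0.05, 0.11 and -0.01 of their deviations from the group means. No pairing by number was seen, but so few arrays cannot exclude it.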

Additional observations from a re-analysis of the deposited data

Results flagged for a closer look

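In 12 of 135 groups of 4 arrays, one array lay farther from the others than Dixon's critical value for groups of this size. For independent, normally distributed values this happens in about 5% of groups. The share over all probes was not counted, so the count does not show an excess among the members. No cause was tested. Kmt2c, an H3K4 methyltransferase, read -0.40 on WT 1 at probe A_55_P1984123, while the other WT arrays lay between -0.20 and -0.19. Suv39h2, an H3K9 methyltransferase, read 0.18 on WT 2 at probe A_55_P2072403, while the other WT arrays lay between 0.31 and 0.33. Prmt5, an arginine methyltransferase, read 0.50 on WT 3 at probe A_52_P677147, while the other WT arrays lay between 0.76 and 0.80. Prmt1, an arginine methyltransferase, read -1.05 on WT 1 at probe A_55_P2021821, while the other WT arrays lay between -0.21 and -0.18. Prmt1, an arginine methyltransferase, read -0.78 on WT 1 at probe A_51_P389531, while the other WT arrays lay between 0.35 and 0.54. Kdm1a, an H3K4 demethylase, read -0.0884 on KO 2 at probe A_55_P1993820, while the other KO arrays lay between 0.20 and 0.22. Kdm1a, an H3K4 demethylase, read -0.0171 on WT 2 at probe A_55_P1993820, while the other WT arrays lay between -0.13 and -0.12. Kdm6b, an H3K27 demethylase, read 0.14 on WT 2 at probe A_55_P2030080, while the other WT arrays lay between -0.09 and -0.06. Hdac2, a class I deacetylase, read -0.15 on KO 2 at probe A_51_P116007, while the other KO arrays lay between -0.36 and -0.33. Hdac3, a class I deacetylase, read -0.53 on KO 3 at probe A_55_P1992640, while the other KO arrays lay between -0.30 and -0.29. Crebbp, an acetyltransferase, read 0.69 on WT 1 at probe A_55_P1965836, while the other WT arrays lay between 0.87 and 0.90. Kat5, an acetyltransferase, read -0.10 on KO 3 at probe A_55_P1996329, while the other KO arrays lay between 0.37 and 0.44.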

How the results depend on the processing

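The count of all probes past the threshold was 2, and it was 1 with normexp offset 0, with no background subtraction, with the series value table and with the mean over a gene's probes, 0 with median centring, with Cy5 alone and with the replicate number as a block, 5 with the scanner ratio, 6 with scaling between arrays, 4 with no filter, 19 with trend and robust settings, 5950 with array weights, 1 to 6691 leaving out 1 array (8 without KO 3), and 7438 without both KO 2 and KO 3. Of the members, 0 were called, against 19 with array weights (26.8%, beside 18.8% of all probes). Those weights were estimated from these same values and the group labels. They were lowest for KO 2 (0.35) and KO 3 (0.47), against 1.08 to 1.77 on the other arrays. Calls with array weights, like those without KO 2, are therefore not a test of the members. Leaving out 1 array called 0 to 21 members, the 21 without KO 2 (29.6%, beside 21.1% of all probes). Leaving out both KO 2 and KO 3 called 21 (29.6%, beside 23.5% of all probes). The other alternatives, the replicate block included (lowest member adjusted p = 0.127), called 0 members. Pairing by number was not seen in the correlations between arrays, though it is not excluded.

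With median centring the median difference was -0.39 over the members, -0.28 in methyltransferases, -0.45 in demethylases, -0.34 in deacetylases and -0.47 in acetyltransferases. With Cy5 alone it was -0.11 over the members, -0.0868 in methyltransferases and -0.12 in demethylases, and with the brightest probe 0.0616, 0.14 in methyltransferases and -0.00651 in acetyltransferases. Leaving out 1 array it was -0.0277 to 0.0384 over the members, and without both KO 2 and KO 3 it was 0.0727 in demethylases.

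Of the 71 member probes, 27 changed sign with median centring and 11 with Cy5 alone. The probes given array by array under the naming rule that changed direction are listed here, and the cause was not tested. The median of all probes was itself -0.28 with median centring and -0.18 with Cy5 alone. The listed probes of Nsd1, Ezh1 and Hdac1 stayed above that median with median centring, and those of Kdm5b, Kdm5c and Kat5 fell below it. With Cy5 alone the listed probes of Ehmt1, Suv39h2 and Kdm5c stayed above it. Median centring gave -0.19 for Nsd1 (A_55_P2016877), -0.0769 for Ezh1 (A_55_P2082869), -0.53 for Kdm5b (A_55_P2065449), -0.48 for Kdm5c (A_51_P477902), -0.19 and -0.21 for Hdac1 (A_55_P1970775 and A_66_P128384) and -0.45 for Kat5 (A_55_P2017714). Cy5 alone gave -0.0338 for Ehmt1 (A_55_P2045163), -0.0865 for Suv39h2 (A_55_P2072403) and -0.13 for Kdm5c (A_51_P477902), for which scaling gave -0.00375. Ehmt1 (A_55_P2149440) had 0.0197 with offset 0, 0.00864 with no background subtraction, 0.00253 with array weights and 0.0199 without both KO 2 and KO 3. Hdac1 (A_55_P2077608) had 0.0428 with the scanner ratio, 0.0429 with the series value table and 0.0296 without both arrays, and Kat5 (A_55_P1996329) 0.00697 without both. The mean over a gene's probes was 0.0275 for Nsd1, 0.32 for Suv39h2, 0.26 for Ehmt1, -0.0618 for Kdm5b, -0.16 for Kdm5c, 0.21 for Hdac1 and -0.0160 for Kat5. Leaving out 1 array gave -0.0471 to 0.0609 for Kdm5c (A_51_P477902), -0.0556 to 0.0597 for Ehmt1 (A_55_P2149440) and -0.15 to 0.0477 for Hdac1 (A_55_P2077608). In the alternatives run on them, Kat2a (A_55_P2049602), Carm1, Men1 (A_55_P2143159), Ash1l, Suv39h1, Hdac4, Setd2 and Kdm3a kept their direction. All of these but Setd2 and Kdm3a were below 0 from the start. Median centring and Cy5 alone also moved the median of all probes down, so these settings could hardly reverse them. Setd2 and Kdm3a fell to 0.02 and 0.05 with median centring.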

Other observations

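Among the cell type markers, single probes of Itgam, a leukocyte integrin, and Eya1, a nephron progenitor regulator, had array patterns like the higher probe of Suv39h2. Itgam (A_55_P1977934) read 1.87, 0.51, 1.48 and 2.98 on KO 1 to KO 4 and between 0.52 and 0.63 on the WT arrays, while its other probe (A_55_P1977929) had a difference of -0.16 ± 0.10 (SE). Eya1 (A_55_P2423586) read 1.81, 0.59, 1.68 and 2.61 on KO 1 to KO 4 and between 0.50 and 0.62 on the WT arrays. In all 3 probes KO 2 lay within or near the WT range and KO 4 was the highest array. These probes were picked after their values were seen and get no test.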
